A study of Homo sapiens with 58 samples.

Results

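The genes described here are those encoding heterogeneous nuclear ribonucleoproteins (HNRNP), SR splicing factors (SRSF) and the SR-like factors TRA2A and TRA2B, as targets of the RNA-binding protein HuR. Peaks of HuR crosslinking were taken when the gene name in the deposited table started with HNRNP or SRSF or was TRA2A or TRA2B. Names of pseudogenes and antisense genes were left out, which removed 34 peaks of 23 names. This left 923 of 387214 peaks, in 40 of the 13836 named genes. The rule used names only and no measured value. HNRNPD-DT, a divergent transcript next to HNRNPD, and HNRNPUL2-BSCL2, a readthrough of neighbouring genes, met the rule by name.

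HuR was crosslinked to RNA by ultraviolet light and immunoprecipitated, and the attached fragments were sequenced (CLIP-seq) in 58 libraries of Huh-7.5, a human hepatocellular carcinoma line. The cells were mock treated or received 0.5 mM sodium arsenite for 45 min, an oxidative stress that induces cytoplasmic stress granules. Unmodified cells were separated into nuclear and cytoplasmic fractions, with 3 libraries for each fraction and treatment. The other libraries came from lines expressing the peroxidase APEX with a nuclear localization signal (APEX-NLS), with a nuclear export signal (APEX-NES) or fused to the stress granule protein G3BP1 (APEX-G3BP1). In these lines biotin phenol and hydrogen peroxide label proteins near the enzyme, in mock and arsenite cells alike. Enriched libraries had an additional streptavidin capture after the HuR immunoprecipitation and input libraries had none. There were 4 enriched and 2 input libraries per treatment for NLS and NES. For G3BP there were 6 mock and 7 arsenite enriched libraries, and 4 mock and 5 arsenite input libraries. No label says whether a line was 1 clone or whether libraries of a group came from separate cultures, so p-values measure the spread between these libraries, which may be technical.

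HuR, the product of ELAVL1, binds U-rich and AU-rich stretches in introns and in 3' untranslated regions (3'UTRs), and is known to shuttle from the nucleus to the cytoplasm. The hnRNP and SR proteins are abundant nuclear regulators of exon choice. Many of their genes control their own output through retained or detained introns and through poison exons, whose inclusion sends the mRNA to decay, and these elements lie in long conserved introns or in the 3'UTR.

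Depth differed widely. Tags in peaks numbered 235471 to 673322 per fraction library, 1353 to 484305 per input library and 519 to 86419 per enriched library. Values are given in CPM, the tags of a peak or of a gene's peaks per 1000000 of the library total, and 1 tag in an enriched library was worth up to 214.5 CPM. All 12 fraction libraries belong to 1 library set (JL0380 in the descriptions). Peaks were found for 10 of 12 hepatocyte genes, with a summed level of 664 to 2550 CPM in the fractions, and for 1 of 4 fibroblast genes, 2 of 3 blood genes and 2 of 3 endothelial genes, with sums of 0 to 1.60, 1.02 to 6.36 and 0 to 1.73 CPM. APOA1 and TTR, both typical hepatocyte genes, had no peak. The nuclear RNA NEAT1 had 385 to 626 CPM in nuclear and 116 to 280 CPM in cytoplasmic libraries. MALAT1, also a nuclear RNA, had 2149 to 3304 CPM over both fractions and did not separate them. In cytoplasmic mock library 1, 51.0% of the intron and 3'UTR tags of other genes were in 3'UTRs, against 60.3% and 61.2% in the other 2. Libraries 1 and 2 of NLS and of NES enriched, mock and arsenite, could not be told apart by counting noise in any of these 4 pairs. Each pair was counted as 1 sample in means given with an SD. CLIP tags give bound RNA, so less binding, less RNA and fewer cells cannot be told apart.

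HuR peaks on these genes lay in introns and 3'UTRs, with a larger share in 3'UTRs and a smaller one in introns than those of other named genes. Of the 923 peaks 520 were classed as intron and 320 as 3'UTR. The 3'UTR class held 34.7% of the members' peaks against 12.3% of the peaks of other named genes, and the intron class 56.3% against 70.7%, shares that were not tested. The other classes were small, with 41 peaks in 5'UTRs, 15 in transposable elements (TE), 14 in coding sequence (CDS), 6 in non-coding RNA, 6 of class Other and 1 downstream of a gene. In tags of the 12 fraction libraries the 3'UTR peaks held 44416 and the intron peaks 13442. Of the 40 genes 29 had peaks of both classes, 20 of them with more fraction tags in the 3'UTR and 9 with more in introns. Only 3'UTR peaks of these classes were listed for 8 genes, only intron peaks for SRSF12 and HNRNPUL2-BSCL2, and neither for HNRNPD-DT.

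The classes overlap in the annotation. The table lists every label of a peak and gives 1 of them as its class. Among the members' intron peaks, 312 of 520 (60.0%) were labelled as retained intron of a coding transcript, and these held 72.4% of the intron tags, against 29.6% of the peaks and 29.7% of the tags of other named genes. Among the members' 3'UTR peaks, 158 of 320 (49.4%) also carried the label intron, with 47.7% of the 3'UTR tags, against 29.7% and 26.4% in other named genes. These shares are a description of the annotation and were not tested.

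A few genes held most tags of each class, and only some were the same. HNRNPH1, which binds G-rich runs, led the 3'UTR class with 11191 fraction tags, 25.2% of the members' total. HNRNPU, a nuclear scaffold protein, followed with 6901 tags (15.5%). The next were HNRNPL, a reader of CA repeats, with 3359, HNRNPK, a C-rich binder, with 2664, TRA2A with 2220 and SRSF9 with 1828 tags. The 10 highest genes held 77.0% of the 3'UTR tags. The intron class was led by HNRNPC, itself a binder of U tracts, with 2575 tags in 89 peaks (19.2%) and again by HNRNPH1 with 2433 tags in 18 peaks (18.1%). SRSF11 had 1407 tags in 62 intron peaks, HNRNPA2B1 1053, TRA2A 996, HNRNPD 587, SRSF4 569 and TRA2B 564. The 10 highest genes held 83.6% of the intron tags. These are tags and not levels per length, so they do not rank the genes by affinity or abundance.

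Within a gene the tags were often in 1 or a few peaks of 20 nt. Coordinates are those of the table, on GRCh38.p14 per the submitters' processing notes, and the table does not state if they are 0-based or 1-based. The highest 3'UTR peak was HNRNPU_18 at chr1:244854143-244854163, on the minus strand, which also carried the labels intron and retained intron. It had 719, 848 and 1043 CPM in the cytoplasmic mock libraries and 122, 123 and 107 CPM in the nuclear mock libraries. With only the highest 3'UTR peak of each gene ranked, next came HNRNPH1_2 at chr5:179614327-179614347, HNRNPL_2 at chr19:38836584-38836604, HNRNPA1_5 at chr12:54284816-54284836 and SRSF9_2 at chr12:120461886-120461906. HNRNPL_2 and HNRNPA1_5 also carried the label intron. Of the intron peaks, HNRNPH1_12 at chr5:179618501-179618521 was the highest, with 71.4, 76.4 and 72.4 CPM in the nuclear and 47.9, 29.5 and 41.1 CPM in the cytoplasmic mock libraries. HNRNPC_91 at chr14:21257540-21257560, HNRNPU_17 at chr1:244848892-244848912, HNRNPK_17 at chr9:83976575-83976595 and HNRNPA2B1_55 at chr7:26198943-26198963 followed, again with only the highest intron peak of each gene ranked. All 5 of these intron peaks carried the label of a retained intron, but HNRNPU_17 lies past the RefSeq 3' end of HNRNPU at 244850297.

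**Figure D1:**
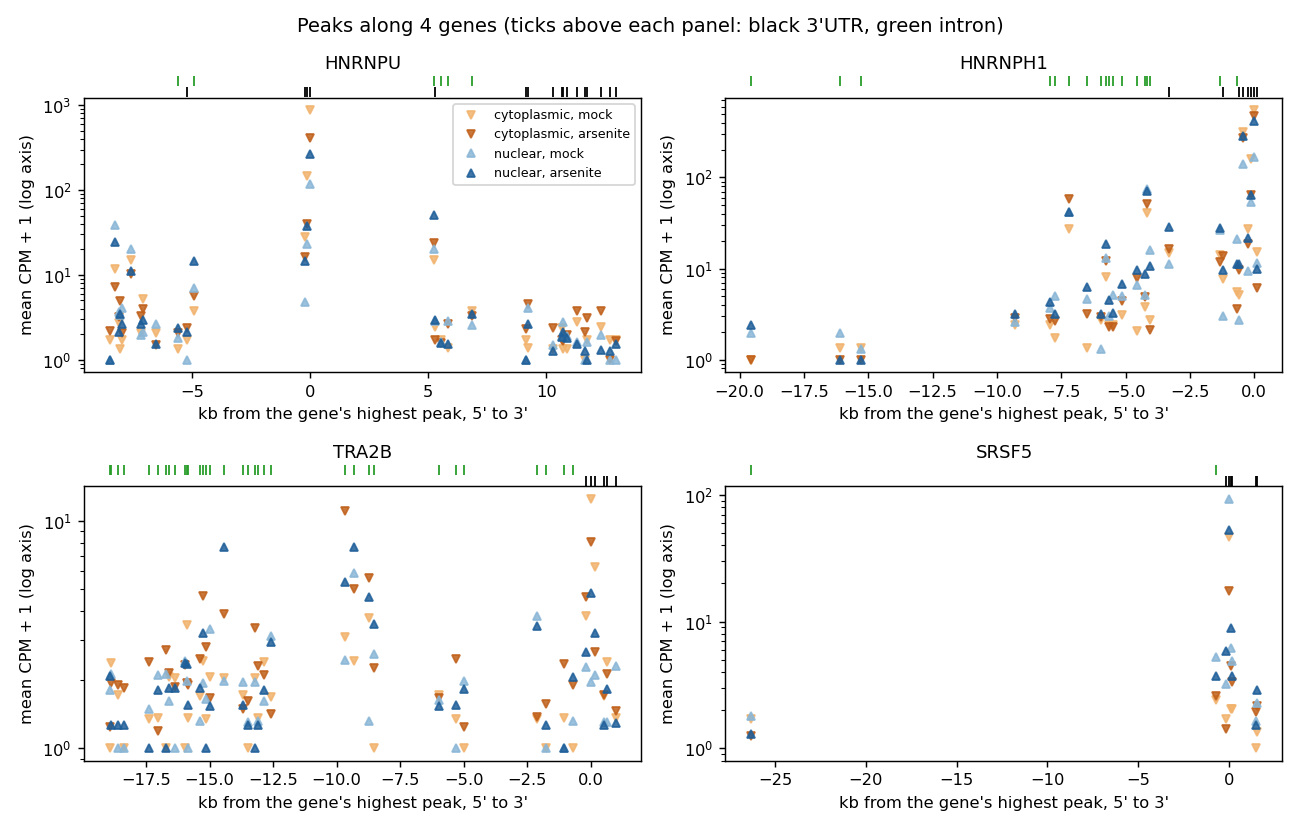
Mean CPM + 1 (log axis, n = 3 libraries) of every peak of HNRNPU, HNRNPH1, TRA2B and SRSF5 in each fraction and treatment, against the distance in kb from the gene's highest peak, with ticks above each panel for 3'UTR (black) and intron (green) peaks. HNRNPU has a single peak far above the rest, with a cytoplasmic mock mean of 870 CPM, while the TRA2B peaks are low and spread along the gene.

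Some names in the set cannot be separated from near-copies. HNRNPA1L2 and HNRNPA1L3 are near-copies of HNRNPA1, HNRNPCL3 and HNRNPCL4 of HNRNPC, and SRSF8 of SRSF2, so tags in their 3'UTR peaks may come from the parent gene. Their values are counted below and are uncertain in this respect.

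The balance of 3'UTR against intron tags followed the fraction, and the fractions lay closer together after arsenite. As a share of the members' intron and 3'UTR tags, 3'UTR peaks held 83.9%, 88.8% and 89.1% in the cytoplasmic mock libraries and 59.3%, 59.2% and 54.1% in the nuclear ones. After arsenite the shares were 77.5%, 78.9% and 78.0% in cytoplasmic and 72.2%, 70.5% and 69.9% in nuclear libraries. In neither treatment did the fractions overlap. The nuclear minus cytoplasmic difference was -29.8 percentage points in mock cells and -7.29 after arsenite. With arsenite the cytoplasmic share moved by -9.16 points and the nuclear share by 13.3 points. No test was made on these shares.

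The members had a larger mean 3'UTR share than other named genes in every group of libraries. The mean share was 87.3% ± 2.91 (SD, n = 3) in cytoplasmic mock libraries, against 57.5% ± 5.64 for other named genes. In nuclear mock libraries it was 57.5% ± 2.94 against 17.4% ± 0.740 (SD, n = 3). Other named genes showed the same direction in all 4 of these differences, at -40.1 points between fractions in mock cells, -6.95 after arsenite, -22.2 for arsenite in the cytoplasm and 10.9 for arsenite in the nucleus. In the cytoplasm, the members thus moved by fewer points with arsenite than the other genes did, a difference that was not tested. When only 3'UTR peaks without the label intron were used, an alternative chosen after seeing the data, the mock difference between fractions was -40.3 points and the nuclear change with arsenite 20.003 points.

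**Figure D2:**
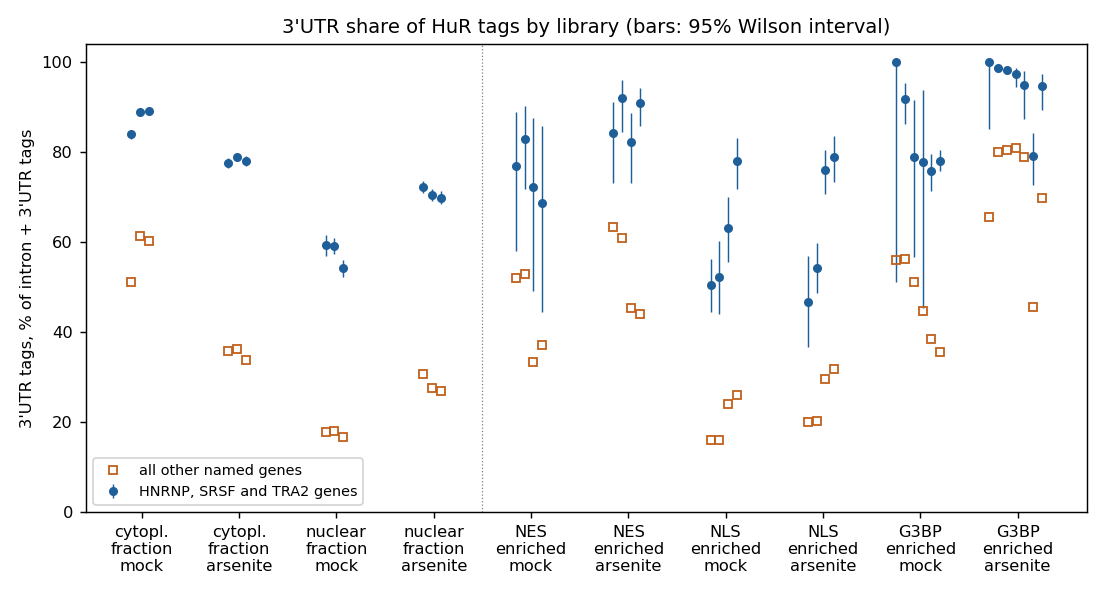
Share of intron and 3'UTR tags that lay in 3'UTR peaks, in percent, for each library, with the members and the other named genes shown separately by group and treatment and bars for the 95% Wilson interval of the members' share, which covers counting error only. The cytoplasmic mock libraries lie at 83.9% to 89.1% for the members and the nuclear mock libraries at 54.1% to 59.3%, with arsenite libraries of both fractions between 69.9% and 78.9%.

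Nuclear and cytoplasmic fractions of mock cells were compared to see which binding belongs to which compartment. Peaks were summed by gene and class, and each sum was tested with limma on log2(value + 2.28 CPM), with Benjamini-Hochberg adjustment over all genes and classes. Such a difference understates the change of low values. In 3'UTRs, 27 of the 37 members tested were lower in the nuclear fraction and only SRSF5 was higher; the same test called 49.8% of all 3'UTR features lower and 0.720% higher. In introns, 6 of 29 were higher and 0 lower, against 24.7% and 1.93% over all genes. Over all classes 41 of 89 were called, 12 higher and 29 lower, with 29.0% of all features called. Without the highest peak of each sum 24 of the 28 called 3'UTRs and 4 of the 6 introns were still called. The median log2 difference was -1.70 for the members' 3'UTRs and -0.98 for all 3'UTRs, and 0.54 against 0.47 for introns.

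HNRNPU carried one of the clearest 3'UTR differences. Its 3'UTR peaks had 162, 164 and 137 CPM in the nuclear and 862, 1051 and 1252 CPM in the cytoplasmic mock libraries. Every cytoplasmic library lay above every nuclear one, and the log2 difference was -2.74 ± 0.15 (SE; limma adjusted p = 7.8e-08). HNRNPH1 3'UTR peaks had 418, 403 and 348 CPM in nuclear and 878, 1156 and 1205 CPM in cytoplasmic libraries, again without overlap, at -1.46 ± 0.14 (SE; limma adjusted p = 4.6e-06). Its paralogue HNRNPH2 had few tags in nuclear libraries, with 0, 3.64 and 3.86 CPM against 45.7, 49.9 and 68.5 CPM, which is -3.69 ± 0.36 (SE; limma adjusted p = 7.7e-06). The HNRNPH2 value rests mostly on HNRNPH2_4 and was -0.87 without it (limma adjusted p = 0.044). All 4 members of the F and H group (HNRNPF, HNRNPH1, HNRNPH2 and HNRNPH3) were lower in the nucleus, against 49.8% of all 3'UTRs.

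In the A/B and D group, 7 of 9 members were lower in nuclear 3'UTRs, near-copies included, against 49.8% of all 3'UTRs. HNRNPA0, a small relative of HNRNPA1, had 23.3, 26.4 and 25.1 CPM in nuclear and 162, 227 and 234 CPM in cytoplasmic libraries, at -2.93 ± 0.18 (SE; limma adjusted p = 2e-07). HNRNPA1, a shuttling splicing repressor, had 64.1, 71.8 and 46.4 CPM against 249, 334 and 424 CPM. The groups were again apart, at -2.41 ± 0.21 (SE; limma adjusted p = 2.3e-06), and at -0.78 without the peak HNRNPA1_5 (limma adjusted p = 0.013). HNRNPA2B1, the close relative of HNRNPA1, did not follow: its 3'UTR had 115, 105 and 99.5 CPM in nuclear and 83.0, 80.5 and 93.9 CPM in cytoplasmic libraries, and the difference, 0.30 ± 0.15 on the log2 scale (SE), did not pass (limma adjusted p = 0.16). HNRNPDL, the relative of HNRNPD, did not pass either, at -0.51.

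Of the 11 other hnRNP genes with a tested 3'UTR 7 were lower, against 49.8% of all 3'UTRs. Among them were HNRNPL at -2.32, HNRNPK at -2.09, HNRNPM at -2.27 and HNRNPUL1 at -2.73. HNRNPR, a factor in RNA transport, did not pass, at -0.22.

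Of 11 SR genes tested in the 3'UTR, 7 were lower in the nucleus and 1, SRSF5, was higher, against 49.8% and 0.720% of all 3'UTRs. SRSF9 had 21.9, 22.7 and 17.4 CPM in nuclear and 116, 128 and 156 CPM in cytoplasmic libraries, at -2.56 ± 0.19 (SE; limma adjusted p = 6.7e-07). SRSF3 and SRSF1, which have known autoregulated transcripts, were lower at -2.31 and -2.07. SRSF5 went the other way, with 103.5, 115 and 97.5 CPM in nuclear and 42.6, 49.9 and 52.7 CPM in cytoplasmic libraries, at 1.09 ± 0.17 (SE; limma adjusted p = 0.00031). SRSF2 at -0.42 and SRSF10 at -0.19 did not pass. Both TRA2 genes were lower, with TRA2A 3'UTR peaks at 43.7, 49.1 and 55.0 CPM in nuclear against 198, 291 and 305 CPM in cytoplasmic libraries.

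**Figure D3:**
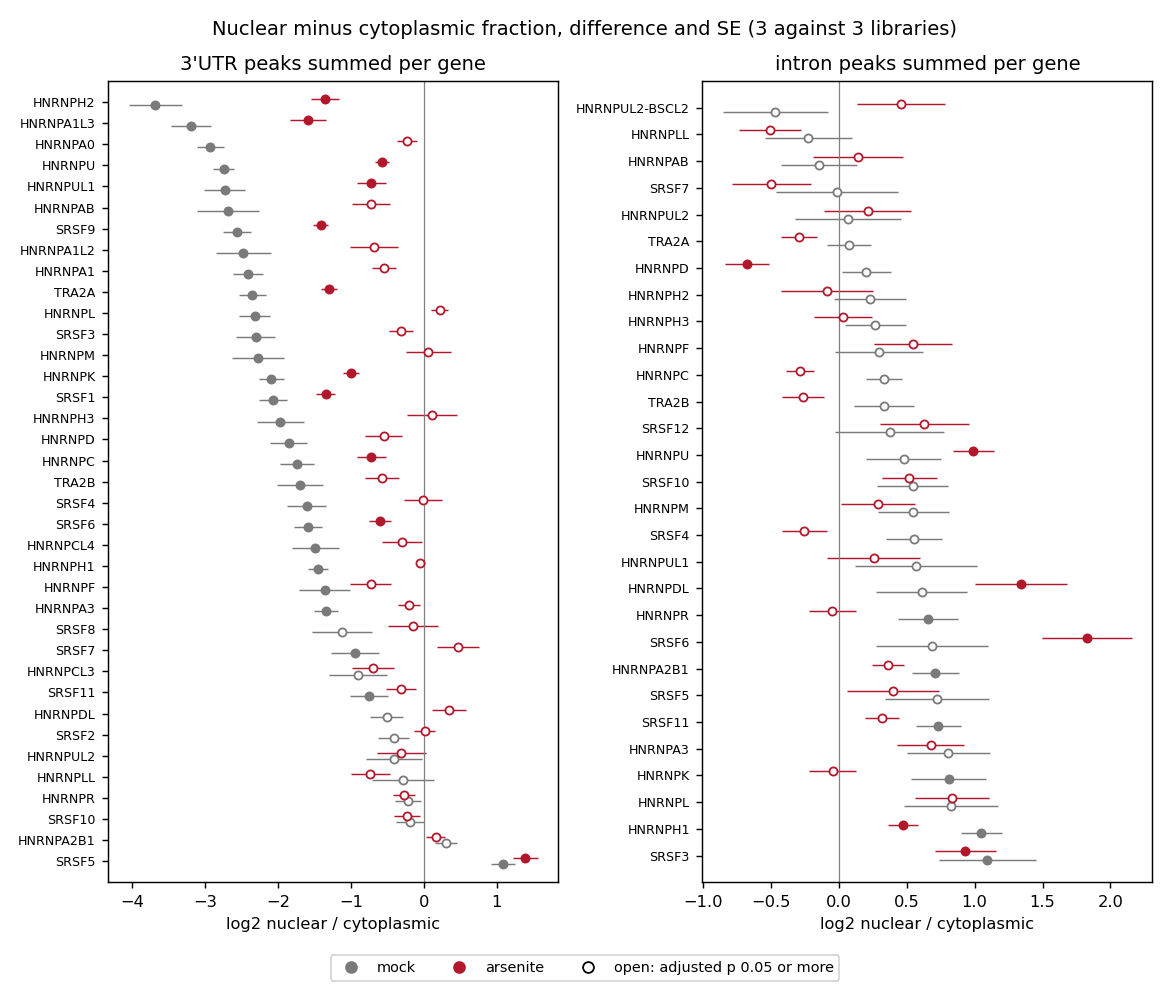
Nuclear minus cytoplasmic log2 difference with its SE for each member's summed 3'UTR peaks (left) and intron peaks (right), in mock (grey) and arsenite (red) cells, 3 against 3 libraries, with open points where the adjusted p was 0.05 or more. The 3'UTR points lie far below 0 in mock cells, with a median of -1.70, and closer to 0 after arsenite, with a median of -0.32.

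Intron binding was spread over both fractions. HNRNPH1 introns had 220, 208 and 229 CPM in nuclear and 112, 87.6 and 117 CPM in cytoplasmic mock libraries, at 1.05 ± 0.15 (SE; limma adjusted p = 0.00018). The other members higher in nuclear introns were SRSF3 at 1.09, HNRNPK at 0.81, SRSF11 at 0.73, HNRNPA2B1 at 0.71 and HNRNPR at 0.66. Without its highest peak SRSF3 was at 0.61 and HNRNPK at 0.69, and neither passed (limma adjusted p = 0.23 and 0.13). HNRNPC introns, with the most tags, had 232, 206 and 237 CPM in nuclear and 185, 167 and 182 CPM in cytoplasmic libraries. The libraries did not overlap, but the difference of 0.33 ± 0.13 (SE) did not pass (limma adjusted p = 0.074). TRA2A introns were near equal, with 84.5, 71.8 and 79.2 CPM against 84.0, 66.2 and 73.8 CPM.

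Outside these classes, HNRNPU 5'UTR peaks had 74.3, 65.5 and 66.6 CPM in nuclear and 36.2, 31.6 and 33.7 CPM in cytoplasmic mock libraries, at 0.98 ± 0.17 (SE; limma adjusted p = 0.001). The direction is opposite to that of its 3'UTR, and without the peak HNRNPU_31 the value was 0.41 and did not pass (limma adjusted p = 0.20). SRSF11 peaks of class Other had 10.2, 6.36 and 8.69 CPM in nuclear libraries against 0, 1.02 and 0 CPM. TRA2A peaks in a transposable element had 7.29, 3.64 and 5.79 CPM against 0, 1.02 and 0 CPM. HNRNPL peaks classed as non-coding RNA had 13.1, 10.9 and 7.72 CPM against 3.19, 3.06 and 2.11 CPM. HNRNPK 5'UTR peaks had 8.74, 20.002 and 5.79 CPM against 1.06, 3.06 and 3.16 CPM. All 4 were called higher in the nucleus by limma. For SRSF11 and TRA2A only 1 cytoplasmic library held tags, so these sums met the filter through the nuclear libraries, and their calls give no separate support. HNRNPK did not pass without its highest peak (limma adjusted p = 0.67), nor without nuclear library 1 or 2 or any 1 of the 3 cytoplasmic libraries (0.071 to 0.11).

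At single peaks the mock comparison called 66 of 673 members' peaks, 10 higher and 56 lower in the nucleus, where 2.82% of all tested peaks were called. The 56 lower ones all belonged to the 3'UTR class, in which 13.1% of all peaks were lower. The intron class held 6 of the 10 higher ones, and 0.453% of all intron peaks were higher. HNRNPH2_4 at chrX:101413955-101413975 and SRSF3_16 at chr6:36602316-36602336 were among the lowest in nuclei, with means of 2.2 against 52.3 CPM and 0.8 against 24.9 CPM (n = 3 each). HNRNPH1_11 at chr5:179618378-179618398, an intron peak close to the highest intron peak of that gene, had a mean of 14.96 CPM in nuclear and 1.7 CPM in cytoplasmic libraries. Leaving out cytoplasmic mock library 1, 2 or 3 gave 19, 0 and 6 calls, and nuclear mock library 1, 2 or 3 gave 70, 16 and 20. Of the 3'UTR peaks that also carried the label intron 19 of 134 were lower, with a median log2 difference of -0.04, where 9.94% of such peaks outside these genes were lower, with a median of -0.44. Of those without the label 37 of 132 were lower, with a median of -0.95, against 14.2% and -0.66 outside these genes. These peaks are of 20 and 30 genes, and the difference between the kinds was not tested.

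In the cytoplasmic fraction most of the 3'UTRs that passed were lower after arsenite. Of 37 tested 3'UTRs 16 were lower and 1, SRSF9, was higher after arsenite, against 18.3% lower and 0.909% higher over all 3'UTRs. Of 30 introns 5 were higher and 0 lower, a share near the 13.1% higher and 1.06% lower over all introns. Over all classes 26 of 98 were called, with 13.0% of all features called. Without the highest peak of each sum 11 of the 17 called 3'UTRs and 3 of the 5 introns were still called, and SRSF5 turned from -0.90 to 1.05 (limma adjusted p = 0.053). The members' median log2 difference was -0.57 in 3'UTRs (all 3'UTRs -0.30) and 0.06 in introns (all introns 0.29). The count of 26 rests on single libraries: without cytoplasmic arsenite library 2 it was 3, without library 3 it was 11 and without library 1 it was 13, and without cytoplasmic mock libraries 2 or 3 it was 12 or 16.

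HNRNPA1 3'UTR peaks fell from 249, 334 and 424 CPM to 61.4, 108 and 86.3 CPM, at -1.95 ± 0.21 (SE; limma adjusted p = 3e-05). Without the peak HNRNPA1_5 the value was -0.83 (limma adjusted p = 0.041). HNRNPL fell from 357, 587 and 640 CPM to 140, 201 and 185 CPM, at -1.55 ± 0.20 (SE; limma adjusted p = 0.00015), and was at -1.28 without its highest peak. HNRNPU fell from 862, 1051 and 1252 CPM to 471, 576 and 411 CPM, at -1.11 ± 0.16 (SE; limma adjusted p = 0.00038). In each of these genes all arsenite libraries lay below all mock libraries. In the A/B and D group 7 of 9 were lower, in the SR group 5 of 11, in the F and H group 1 of 4 and in the other hnRNP genes 3 of 11. Over all 3'UTRs it was 18.3%. HNRNPH1, the gene with the most 3'UTR tags, had 827, 912 and 840 CPM after arsenite and overlapped the mock range, at -0.32 ± 0.14 (SE; limma adjusted p = 0.16). HNRNPK and TRA2A 3'UTRs did not pass, at 0.14 and -0.27.

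SRSF9 stood apart. Its cytoplasmic 3'UTR tags rose from 116, 128 and 156 CPM to 220, 238 and 242 CPM, at 0.81 ± 0.15 (SE; limma adjusted p = 0.0028), with no overlap. The rise was in the peak SRSF9_2, without which the value was 0.20 and did not pass (limma adjusted p = 0.58). The introns that rose in the cytoplasm were those of HNRNPK (1.42), TRA2B (1.08), SRSF3 (1.07), HNRNPA2B1 (0.63) and HNRNPH1 (0.56). TRA2B introns, which hold the known poison exon of that gene, went from 28.7, 25.5 and 19.0 CPM to 57.0, 50.6 and 52.9 CPM (SE 0.20; limma adjusted p = 0.0022). HNRNPK introns went from 11.7, 15.3 and 8.44 CPM to 30.3, 34.1 and 40.3 CPM (SE 0.23; limma adjusted p = 0.0011). Most of this was the peak HNRNPK_17, with a mean of 5.88 CPM in mock and 25.7 CPM in arsenite libraries (n = 3 each). Without it the value was 0.48 and did not pass (limma adjusted p = 0.32), while TRA2B introns without their highest peak stayed at 0.91 (limma adjusted p = 0.005). SRSF3 introns were at 0.99 without their highest peak and did not pass (limma adjusted p = 0.062). The TRA2B intron peak TRA2B_17 at chr3:185927111-185927131 had 2.13, 3.06 and 1.05 CPM in mock and 10.8, 7.96 and 11.1 CPM in arsenite libraries, and was called by limma at the level of peaks (log2 difference 1.51, adjusted p = 0.048). Outside introns, the SRSF6 sum classed as coding sequence rose from 5.32, 3.06 and 2.11 CPM to 16.6, 17.1 and 14.6 CPM, all of it in 1 peak. That peak, SRSF6_19 at chr20:43465846-43465866 on the plus strand, lies past the RefSeq end of SRSF6 at 43464243.

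In the nuclear fraction most of the 3'UTRs that passed were higher after arsenite. Of 37 tested 3'UTRs 10 were higher and 1, SRSF5, was lower, against 13.6% higher and 0.449% lower over all 3'UTRs. In introns 2 of 30 were higher and 3 lower, against 0.925% and 2.54% over all introns. Over all classes 17 of 94 were called, with 5.83% of all features called. Without the highest peak of each sum 6 of the 11 called 3'UTRs and 3 of the 5 introns were still called. The median of the members' 3'UTRs was 0.55, against 0.39 for all 3'UTRs. Among the members 4 3'UTRs were both lower in the cytoplasm and higher in nuclei with arsenite, of 22 that were either. This overlap was not counted over all 3'UTRs, so it is not read as particular to these genes. Leaving out nuclear arsenite library 3 gave 0 calls, library 2 gave 7 and library 1 gave 8, and leaving out nuclear mock library 1 gave 10.

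HNRNPH1 3'UTR peaks rose from 418, 403 and 348 CPM to 878, 786 and 833 CPM, at 1.09 ± 0.08 (SE; limma adjusted p = 1.4e-06). HNRNPU rose from 162, 164 and 137 CPM to 353, 318 and 298 CPM, at 1.06 ± 0.10 (SE; limma adjusted p = 1.5e-05). SRSF9 rose from 21.9, 22.7 and 17.4 CPM to 96.1, 78.4 and 84.0 CPM, at 1.95 ± 0.16 (SE; limma adjusted p = 5.3e-06), so that it was higher after arsenite in both fractions. No arsenite library of these genes overlapped the mock libraries. The others that rose were HNRNPH2 (2.24), HNRNPUL1 (1.47), HNRNPA0 (1.30), HNRNPK (1.23), HNRNPL (0.99), TRA2A (0.79) and HNRNPA3 (0.55). Without the highest peak of each, HNRNPU was at 0.68 and called, HNRNPL at 0.19, HNRNPUL1 at 1.1 and TRA2A at 0.46 did not pass (limma adjusted p = 0.83, 0.059 and 0.16), and HNRNPH2 had too few tags to test. HNRNPA1 did not move in the nucleus beyond its spread, with 57.7, 59.2 and 52.0 CPM after arsenite, at -0.09 ± 0.17 (SE; limma adjusted p = 0.81). SRSF5 went to 81.7, 70.4 and 56.3 CPM, at -0.60 ± 0.14 (SE; limma adjusted p = 0.025), and the sign turned to 0.40 without its highest peak.

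Among nuclear introns HNRNPU and SRSF3 rose and HNRNPD, HNRNPR and HNRNPC fell. HNRNPU introns went from 20.4, 39.1 and 30.9 CPM to 62.5, 72.8 and 68.4 CPM, at 1.15 ± 0.20 (SE; limma adjusted p = 0.0027). Most of this was the peak HNRNPU_17, with a mean of 19.3 CPM in mock and 49.3 CPM in arsenite libraries (n = 3 each), and without it the value was 0.64 and did not pass (limma adjusted p = 0.17). Though classed as intron, HNRNPU_17 lies past the RefSeq 3' end of HNRNPU, at 244850297 on the minus strand of chr1. SRSF3 introns without their highest peak were at 0.86 and did not pass (limma adjusted p = 0.10). HNRNPC introns went from 232, 206 and 237 CPM to 168, 153 and 142 CPM, at -0.54 ± 0.10 (SE; limma adjusted p = 0.0046). HNRNPD encodes AUF1, a protein that, like HuR, binds AU-rich elements. Its introns went from 62.7, 47.3 and 53.1 CPM to 26.4, 28.8 and 26.0 CPM, at -0.94 ± 0.16 (SE; limma adjusted p = 0.003). The HNRNPC fall was in part at the single peak HNRNPC_91, which went from 46.6, 39.1 and 40.6 CPM to 16.8, 13.6 and 12.1 CPM in nuclei. In the cytoplasm the same peak had 53.2, 41.8 and 45.3 CPM in mock and 26.7, 18.8 and 13.9 CPM in arsenite libraries, where it did not pass (limma adjusted p = 0.068). TRA2B introns had 36.8, 45.6 and 51.1 CPM after arsenite in nuclei against 29.1, 29.1 and 34.8 CPM in mock, apart but not past the threshold (log2 difference 0.48 ± 0.17, SE; limma adjusted p = 0.13).

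**Figure D4:**
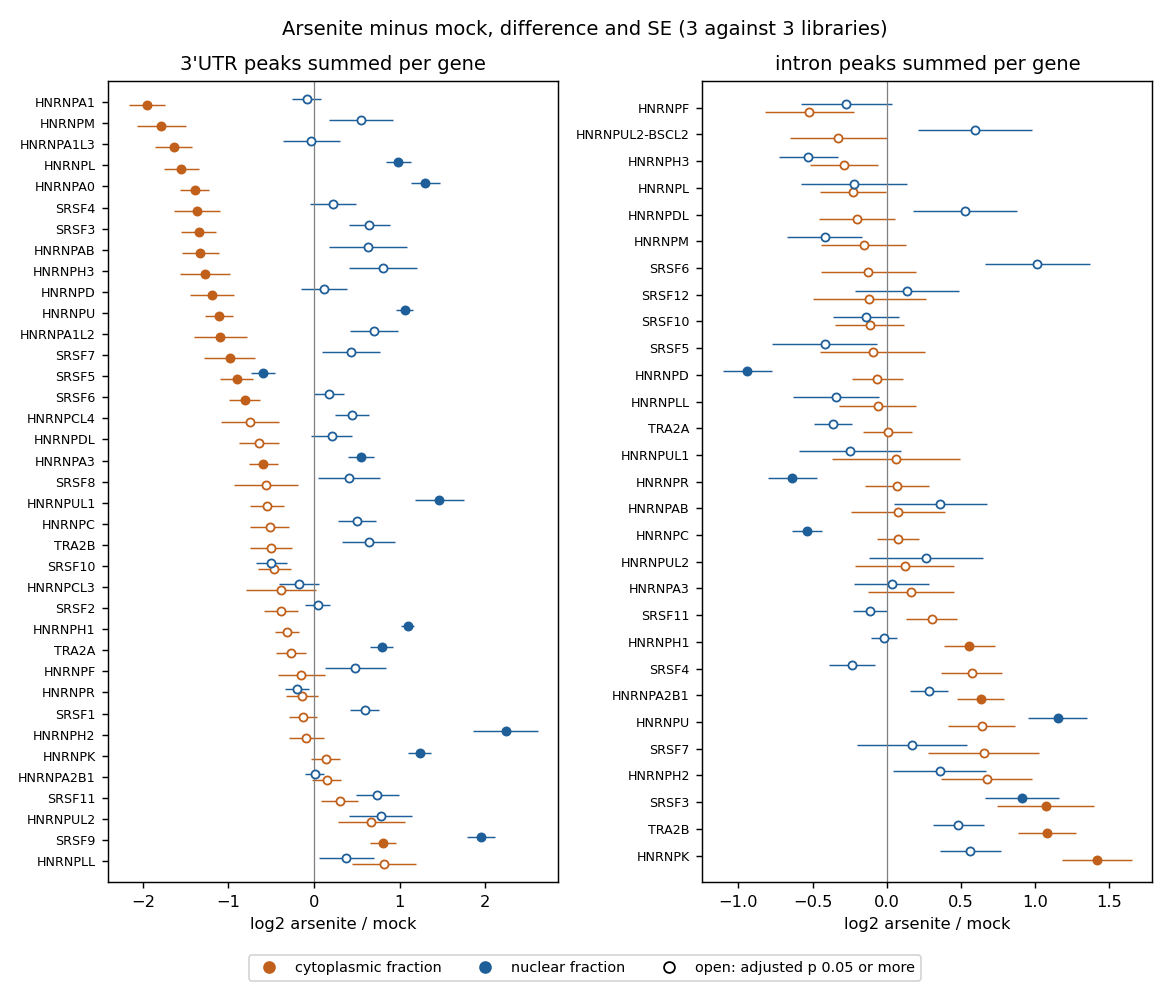
Arsenite minus mock log2 difference with its SE for each member's summed 3'UTR peaks (left) and intron peaks (right), with the cytoplasmic and nuclear fractions in different colours, 3 against 3 libraries, and open points where the adjusted p was 0.05 or more. In 3'UTRs most cytoplasmic points lie below 0 and most nuclear points above it, with medians of -0.57 and 0.55, and SRSF9 lies above 0 in both.

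At single peaks few of the members were called with arsenite, in a test of limited power. Of 100 simulated peaks (4-fold change, mean of at least 20 tags) 27 were recovered in the cytoplasm and 38 in the nucleus. In the cytoplasm 17 of 765 were called, 5 higher and 12 lower, with 0.760% of all tested peaks called. All 12 lower ones were among the 301 members' peaks of the 3'UTR class, in which 2.69% of all peaks were lower. In the nucleus 10 of 711 were called, 9 higher and 1 lower, with 0.186% of all tested peaks called. The 9 higher ones were among 257 of the 3'UTR class, in which 1.20% of all peaks were higher. Between the arsenite fractions 19 of 785 were called, with 0.257% of all tested peaks, and 10 of 296 of the 3'UTR class were lower, against 0.766%. The calls at peaks depend on single libraries: without cytoplasmic mock library 1, 2 or 3 the cytoplasmic count was 8, 0 and 1, and without cytoplasmic arsenite library 1, 2 or 3 it was 33, 37 and 31. Without nuclear mock library 1, 2 or 3 the nuclear count was 0, 4 and 5, and without nuclear arsenite library 1, 2 or 3 it was 0, 0 and 19. Between the arsenite fractions each library left out gave 0 to 4 calls. SRSF9_2 was called in both fractions, from a mean of 107.4 to 203.3 CPM in the cytoplasm and from 16.5 to 71.8 CPM in the nucleus (n = 3 each). HNRNPA1_5 fell in the cytoplasm from a mean of 298 to 63.7 CPM, HNRNPA0_2 at chr5:137752095-137752115 from 131 to 26.7 CPM and HNRNPU_19 at chr1:244854264-244854284 from 147 to 38.4 CPM (n = 3 each). HNRNPA0_7 at chr5:137752802-137752822, in the same 3'UTR as HNRNPA0_2, had a mean of 10.5 CPM in mock and 20.9 CPM in arsenite cytoplasmic libraries, which did not pass (limma adjusted p = 0.10). In the nucleus it was called higher, from 1.4 to 12.6 CPM (limma adjusted p = 0.015), a call lost in 5 of 12 other settings (adjusted p up to 0.27), each leaving out 1 library. The peaks were not tested against each other.

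After arsenite the fractions differed less. Of 37 tested 3'UTRs 10 were lower in the nucleus and 1, SRSF5, was higher, against 9.66% lower and 0.998% higher over all 3'UTRs, and 5 of 30 introns were higher and 1, HNRNPD, lower, against 1.33% and 0.757% over all introns. Over all classes 21 of 97 were called, with 4.72% of all features called. Without the highest peak of each sum 5 of the 11 called 3'UTRs and 3 of the 6 introns were still called. The median of the members' 3'UTRs was -0.32 (all 3'UTRs -0.17). In 33 of 37 3'UTRs the difference between fractions was smaller in size than in mock cells. That count was not made over all 3'UTRs, of which 49.8% were called lower in mock cells and 9.66% after arsenite. SRSF9 (-1.42), SRSF1 (-1.34) and TRA2A (-1.30) were among the lower ones, TRA2A at -0.69 without its highest peak. SRSF5 had 81.7, 70.4 and 56.3 CPM in nuclear and 23.8, 28.4 and 22.3 CPM in cytoplasmic arsenite libraries, at 1.39 ± 0.17 (SE; limma adjusted p = 7.8e-06), so it was higher in the nucleus in both treatments. SRSF6 introns had 5.60, 12.8 and 9.53 CPM in nuclear and 0.72, 0.57 and 1.39 CPM in cytoplasmic libraries, at 1.83 ± 0.33 (SE; limma adjusted p = 0.0012). Without nuclear library 3 or cytoplasmic library 2 the count was 5, and without nuclear library 2, cytoplasmic library 1 or cytoplasmic library 3 it was 13, 11 and 11.

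Whether arsenite acted differently in the 2 fractions was tested as the interaction, the nuclear arsenite effect minus the cytoplasmic one. For 3'UTRs 23 of 37 members had a positive interaction and 0 a negative one, against 23.8% positive and 0.0411% negative over all 3'UTRs. The median was 1.14, against 0.63 for all 3'UTRs. Without the highest peak of each sum 16 of the 23 were still called. For introns 0 of 31 were positive and 3 (HNRNPD, HNRNPC and HNRNPH1) negative, against 0.562% positive and 8.99% negative over all introns. Over all classes 28 of 102 were called, with 10.5% of all features called.

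The interactions highest in value were those of HNRNPA0 at 2.69 ± 0.24, HNRNPL at 2.54 ± 0.21, HNRNPM at 2.33 ± 0.46 and HNRNPH2 at 2.33 ± 0.38 (SE), all called by limma. HNRNPA0 had 77.7, 59.2 and 58.9 CPM in nuclear and 74.4, 76.2 and 79.3 CPM in cytoplasmic arsenite libraries, after a clear gap in mock cells. HNRNPL had 211, 220 and 178 CPM against 140, 201 and 185 CPM and overlapped. HNRNPM rested on 4.0 to 6.41 CPM in nuclear and 3.41 to 6.50 CPM in cytoplasmic arsenite libraries. The adjusted p over the other settings stayed at or under 0.047 for HNRNPL and 0.025 for HNRNPM, and reached 0.88 for HNRNPH2, where a setting left out its highest peak. In the SR group 6 of 11 were positive, against 23.8% of all 3'UTRs, among them SRSF3 at 1.99 and SRSF9 at 1.14. SRSF5 at 0.31 and HNRNPA2B1 at -0.14 did not pass.

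The 3 negative intron interactions were small: -0.88 ± 0.27 for HNRNPD, -0.62 ± 0.18 for HNRNPC and -0.58 ± 0.19 for HNRNPH1 (SE; limma adjusted p = 0.024, 0.013 and 0.036). The HNRNPH1 value did not pass in 9 of 19 other settings, with an adjusted p of up to 0.16, and those of HNRNPD and HNRNPC did not pass in 2 of 19 each (up to 0.074 and 0.055). The SRSF6 sum classed as coding sequence, a peak past the RefSeq end of the gene, had -1.49 ± 0.46 (SE; limma adjusted p = 0.025). It did not pass in 10 of 18 other settings (adjusted p up to 0.10), edgeR's quasi-likelihood test on the recovered tags among them (adjusted p = 0.068). At single peaks 20 of 898 were called, all positive and all of the 3'UTR class, where 0.352% of all tested peaks were called and 2.46% of all 3'UTR peaks were called positive. HNRNPA0_2 (3.08), HNRNPU_19 (2.55) and HNRNPL_2 (2.54) had the largest values. Leaving out any 1 of the 6 arsenite libraries gave 8 to 13 calls, leaving out cytoplasmic mock library 2 or 3 gave 11 and 12, and the other mock libraries gave 15 to 20.

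**Figure D5:**
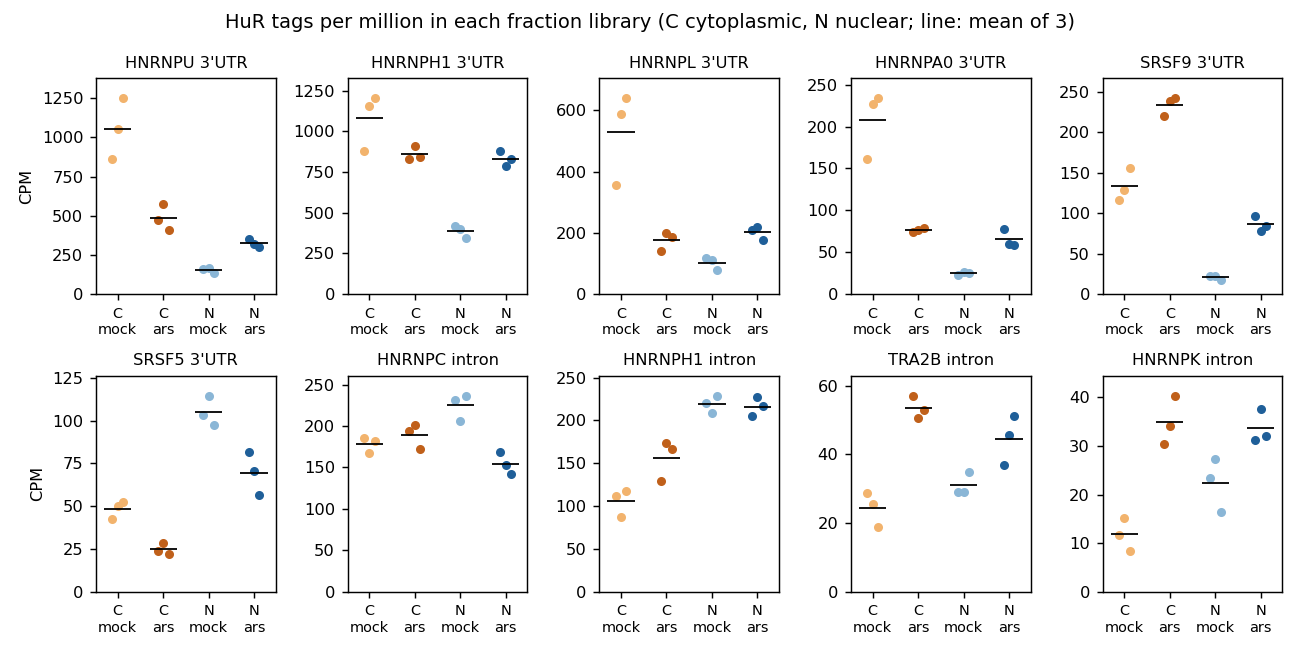
CPM in each of the 12 fraction libraries for leading member sums, by fraction and treatment, with 1 point per library and a line at the mean. In the 3'UTR of HNRNPU the cytoplasmic mock libraries lie at 862 to 1252 CPM and all others at 137 to 576 CPM.

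The TRA2 genes had tags in both classes. TRA2A tags in the 3'UTR were lower in the nucleus in mock and arsenite cells and rose in nuclei with arsenite, while its introns had 57.7, 64.0 and 59.8 CPM in nuclear and 78.0, 74.5 and 71.6 CPM in cytoplasmic arsenite libraries, a difference that did not pass (-0.30 ± 0.13, SE; limma adjusted p = 0.23). For TRA2B, the intron sum passed with arsenite in the cytoplasm and the 3'UTR passed only between mock fractions (-1.70 ± 0.32, SE; limma adjusted p = 0.0014), or -1.07 without its highest peak, where it did not pass (limma adjusted p = 0.059).

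Proximity labelling asked the same question without fractionation, at much lower depth. In mock cells 5 of 35 tested members were higher in NLS than in NES enriched libraries and 0 lower, with 21.0% of all features called. After arsenite it was 7 of 42 and 0 lower, with 14.3% of all features called. By class, 3 of 12 introns and 2 of 21 3'UTRs were higher in mock cells, against 26.8% and 4.02% of all such features, and 6 of 12 and 0 of 24 after arsenite, against 22.8% and 1.88%. These fits took the library set as a covariate. NES enriched mock libraries held 2981 to 5011 tags in peaks and NLS ones 20609 to 34803. A feature with tags in 4 libraries was tested, so tags in NLS alone could suffice. The absence of lower calls was not tested against this difference in depth. The median of all features lay well above 0, at 1.09 in mock and 0.91 after arsenite, and scaling to the tags in listed peaks moved it by -0.40 and -0.42, so directions are best read relative to it. The members' median was 0.88 and 0.93.

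The members called in mock cells were the introns of SRSF11 (3.32), HNRNPD (2.17) and HNRNPM (1.97) and the 3'UTRs of SRSF11 (2.37) and SRSF2 (2.19). SRSF11 introns had 148, 95.7, 26.5 and 29.3 CPM in NLS and 0, 19.9, 0 and 9.48 CPM in NES enriched mock libraries, which did not overlap (SE 0.88; limma adjusted p = 0.021). The NES values are of 0 to 1 tag each. After arsenite the introns of HNRNPC (3.42), HNRNPA2B1 (2.76), SRSF11 (2.61), SRSF10 (2.57), TRA2A (2.56) and HNRNPH1 (2.05) were called, those of SRSF10 and HNRNPH1 not without their highest peak. A TE peak sum of HNRNPC (1.88) was also called. It had 1.91 to 13.9 CPM in NLS and 0 CPM in all NES libraries. It thus passed the filter through NLS alone, and the call gives no separate support. HNRNPC introns had 125, 89.2, 17.2 and 17.4 CPM in NLS and 26.1, 0, 0 and 0 CPM in NES libraries, with 1 tag behind the value of 26.1 CPM. For these introns too the NLS libraries alone met the filter.

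The counts are fragile. In mock cells edgeR called 0 members and in arsenite cells 4, counts without an edgeR share over all features beside them. With the JL0388 pairs counted once the counts were 2 and 1, and with no filter 0 and 1. In mock cells 0 were called without NES library 1 or 3, 1 without NES library 2 or 4, 3 without NLS library 1, and 5 or 6 without another NLS library. After arsenite 0 were called without any 1 of the 4 NLS libraries, and 5, 5, 2 and 1 without NES libraries 1, 2, 3 and 4. With the JL0388 pair averaged and counted once, the members' 3'UTR share in mock cells averaged 64.1% ± 13.4 (SD, n = 3) with NLS. With NES it averaged 73.6% ± 5.69 (SD, n = 3). Over all 4 against 4 libraries the difference was -14.3 points in mock and -23.4 points after arsenite, and with the pairs counted once it was -9.54 and -18.7 points. Within set JL0388 it was -28.6 and -37.6 points, and within JL1024 -0.00037 and -9.18 points, so in mock cells the difference was seen in 1 of the 2 sets.

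Stress granule proximity was compared as G3BP against NES enriched libraries, within the sets that hold both. In mock cells limma called 0 of 27 tested members, with 0% of all features called by limma. With edgeR 1 member was called, and no edgeR share over all features is given. The 3'UTRs of HNRNPH1 and HNRNPK were the 2 at an unadjusted p under 0.05. HNRNPH1 had 67.8, 214.5, 371 and 466 CPM in G3BP and 52.9, 19.9, 34.98 and 19.0 CPM in NES mock libraries, which did not overlap, at 2.86 ± 0.88 (SE; limma adjusted p = 0.49). The G3BP values of 67.8 and 214.5 CPM, from set JL0388, are 1 tag each. In the NES libraries of that set 1 tag was worth 26.4 and 19.9 CPM, so the lack of overlap there rests on single tags. HNRNPU was at 1.49 ± 0.83 in mock cells (SE; limma adjusted p = 0.95). After arsenite 2 of 26 were higher in G3BP, with 2.58% of all features and 4.70% of all 3'UTRs called: the 3'UTRs of HNRNPH1 and HNRNPU. HNRNPH1 had 338, 392, 581 and 792 CPM in G3BP and 209, 78.7, 37.3 and 117 CPM in NES arsenite libraries. No G3BP library overlapped an NES library, and the difference was 2.40 ± 0.53 on the log2 scale (SE; limma adjusted p = 0.013). HNRNPU had 744, 570, 196 and 164 CPM in G3BP and 183, 197, 20.7 and 19.5 CPM in NES libraries, also at 2.40 ± 0.53 (SE; limma adjusted p = 0.013). Without the peak HNRNPU_18 it was at 1.82 and did not pass (limma adjusted p = 0.30). The ranges overlapped over both sets, because the NES libraries of JL0388 lay near the G3BP libraries of JL1024. All features had a median of 0.90 in this comparison and 0.25 when scaled to tags in listed peaks, under which neither gene was called (limma adjusted p = 0.22 for both). Neither was called without NES library 2, G3BP library 5 or G3BP library 7 (limma adjusted p of 0.057 to 0.13). Whether G3BP minus NES differed between mock and arsenite cells was not tested.

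Over the 7 G3BP enriched arsenite libraries HNRNPH1 3'UTR tags had a lowest value of 304, a median of 542 and a highest of 792 CPM, and over the 6 mock libraries 67.8, 223 and 466 CPM. For HNRNPU the values were 164, 248 and 744 CPM after arsenite and 0, 101 and 643.5 CPM in mock libraries. The mock libraries reach down to 1 tag or 0, and arsenite against mock was not tested within G3BP. Members' 3'UTR shares in G3BP enriched libraries were 83.7% ± 9.84 (SD, n = 6) in mock and 94.7% ± 7.16 (SD, n = 7) in arsenite cells, against 47.0% ± 8.81 and 71.5% ± 13.0 for other named genes. G3BP minus NES was 2.46 points in mock and 4.10 points after arsenite within the sets that hold both, and the mock value turned to -0.706 when tags were pooled over libraries. In mock cells it was -1.51 points within JL0388 and 6.43 within JL1024, so the sign differed between the sets. After arsenite it was 7.94 points within JL0388 and 0.271 within JL1024.

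In the input libraries, which had no capture step, arsenite was compared with mock over the 3 lines, with line and set as terms. With limma 0 of 69 tested members were called (9 at an unadjusted p under 0.05), with 0% of all features called. With edgeR 14 were called. No share over all features is given for these 14 or for the 9, so neither count is read as particular to these genes. The largest values were 3'UTR sums already seen to rise in nuclei: HNRNPH2 at 2.07 ± 0.67 and SRSF9 at 1.92 ± 0.75 (SE; limma adjusted p = 0.58 for both), which edgeR called. In the G3BP input libraries SRSF9 had 0, 38.0, 5.23 and 0 CPM in mock and 0, 79.3, 74.6, 15.7 and 66.3 CPM after arsenite, which overlap. Arsenite minus mock, the members' 3'UTR share differed by 6.48 points over all input libraries, 16.7 within JL0361, 9.41 within JL0388 and -5.10 within JL1024, with no test made.

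Other splicing genes were counted in lists chosen with earlier results of these data known. Among 36 other splicing regulators, 22 of 30 tested 3'UTRs were lower in mock nuclei and 1 higher, with a median of -1.22, and 20 of 32 introns were higher, with a median of 0.67. Among 45 core spliceosome genes, 14 of 28 3'UTRs were lower (median -0.84) and 11 of 37 introns higher (median 0.69), near the 49.8% and 24.7% over all genes. Among 10 kinases and import factors of SR proteins, 3 of 6 3'UTRs were lower and 5 of 9 introns higher. The interaction was positive in 16 of 31 3'UTRs of the other regulators, 4 of 32 of the core spliceosome and 2 of 6 of the kinases and import factors, against 23.8% over all 3'UTRs. With arsenite in the cytoplasm, 13 of 30 3'UTRs of the other regulators were lower (median -0.59) and 3 of 32 of the core spliceosome (median -0.28), against 18.3% over all 3'UTRs. Of the 6 3'UTRs of the kinases and import factors 0 were lower, with a median of 0.12. For the mock introns of the other regulators the share called was above that of the members (6 of 29), a difference that was not tested.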

How the data were processed

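HuR CLIP-seq tags were analysed in 58 libraries of Huh-7.5 cells from the table of combined peaks that the authors deposited. Per the submitters' processing notes the tools included Bowtie2, SAMtools, bedtools and HOMER and the build was GRCh38.p14; other upstream steps are not given in the sources used here. The deposited signal of each peak in each library is a number of tags divided by the library total, and 100.0% of values were whole tags within 0.05 of a tag, so counts were recovered. Of 395471 lines 8257 repeats were dropped, and 84358 of the 387214 peaks kept had no gene name. Peaks are 20 nt long.

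Values were summed by gene and annotation class (32529 features) or kept as peaks. Each was tested on log2(value + 2.28 CPM) with limma 3.58.1 in R 4.3.3 (lmFit and eBayes with a trend, two-sided). A feature was tested if the number of libraries with a tag reached the size of the smaller group, and p-values were adjusted by Benjamini-Hochberg over the whole table at 0.05. Library set, or line and set together for input, entered as a covariate where a comparison spans several. edgeR 4.0.16 (quasi-likelihood) on the recovered counts, pseudocounts of 0.571 and 9.14 CPM, no filter, another scaling, a replicate block, leaving out each library, leaving out the highest peak, and pooling were tried as alternatives. The fits were tested on simulated data: of 100 features with a 4-fold change and a mean of at least 20 tags, 83 were recovered for mock nuclear against cytoplasmic and 17 for the interaction.

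Replicate numbers were checked and do not pair the libraries. Genes named in the text were the 10 with the most tags in each class, the largest called differences without overlap in each comparison, and the called members of the other comparisons; further members are named as examples of their group. The member genes and all lists were chosen with earlier results of these data known. Depth sets the precision: 16 libraries held under 10000 tags in peaks. Gene symbols are those of the table.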

Additional observations from a re-analysis of the deposited data

Results flagged for a closer look

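Several libraries lay far from the rest of their group. In G3BP enriched arsenite library 6 the members' 3'UTR share was 79.1%, with 94.6% to 100% in the other 6, and their summed intron level was 342 CPM, with 0 to 143 CPM in the others. In NES enriched arsenite library 1 HNRNPC and SRSF10 introns had 26.1 CPM each, which is 1 tag, and the other 3 libraries had 0. HNRNPK 3'UTR peaks had 214.5 CPM, also 1 tag, in G3BP enriched mock library 4, and 0 to 67.8 CPM in the others. SRSF9 3'UTR peaks had 38.0 CPM in G3BP input mock library 2, with 0 to 5.23 CPM in the others, and HNRNPD introns had 354 CPM in G3BP input mock library 1, with 0 to 23.5 CPM in the others. These are 7 of 60 groups of values examined (11.7%), where chance marks about 5%.

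The effect of arsenite differed between the fractions by the interaction test for these members. On the log2 scale, nuclear minus cytoplasmic, the 3'UTR values were 2.69 for HNRNPA0, 2.54 for HNRNPL, 2.33 for HNRNPM and 2.33 for HNRNPH2. The value was -1.49 for the SRSF6 peak classed as coding sequence, which lies past the RefSeq end of the gene. For introns it was -0.88 for HNRNPD, -0.62 for HNRNPC and -0.58 for HNRNPH1. At single peaks it was 3.08 for HNRNPA0_2, 2.55 for HNRNPU_19 and 2.54 for HNRNPL_2.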

How the results depend on the processing

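The counts from the fractions by gene and class kept within 1.5 times of their value under all settings but the omission of libraries and of the highest peak of each sum. Without that peak there were 9 calls between the arsenite fractions, 9 for arsenite in nuclei, 8 for NLS minus NES in mock cells and 1 for G3BP minus NES with arsenite. For NLS minus NES in mock cells (5 calls) the larger pseudocount gave 1, no filter 0, edgeR 0 and pairs counted once 2. After arsenite (7 calls) the smaller pseudocount gave 2, no filter 1, scaling to tags in listed peaks 1, edgeR 4 and pairs counted once 1. For G3BP minus NES edgeR called 1 in mock cells and the scaling 0 after arsenite, and for input edgeR called 14. At peaks, the smaller pseudocount, no filter and edgeR gave 11, 31 and 34 between the arsenite fractions and 5, 16 and 16 for arsenite in nuclei. For arsenite in the cytoplasm the smaller pseudocount gave 30 and edgeR 31, and for the interaction the scaling gave 13.

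With the replicate number as a block, NLS minus NES after arsenite had 2 calls and cytoplasmic arsenite peaks 27; the other counts stayed within 1.5 times. The numbers do not pair the libraries.

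Without the highest peaks the share moved to -4.69 points between the arsenite fractions and -11.8 for cytoplasmic arsenite. With 3'UTR peaks not also listed as intron, chosen after seeing the data, it was -40.3 between the mock fractions, -10.6 between the arsenite fractions and 20.003 for nuclear arsenite. Pooled tags turned G3BP minus NES in mock cells to -0.706. The sign also turned for the SRSF5 3'UTR with arsenite without its highest peak (0.40 in nuclei, 1.05 in the cytoplasm) and for the HNRNPC 3'UTR in input libraries with edgeR (0.65) and without its highest peak (0.16). The cause was not tested.

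Leaving out 1 library gave, by gene and class, 32 to 38 calls between mock fractions, 5 to 14 between arsenite fractions, 3 to 28 for cytoplasmic and 0 to 13 for nuclear arsenite and 21 to 30 for the interaction. It gave 0 to 6 and 0 to 5 for NLS minus NES, 0 to 1 and 0 to 3 for G3BP minus NES (mock, then arsenite) and 0 to 0 for input. At peaks the ranges were 0 to 70, 0 to 4, 0 to 37, 0 to 19 and 8 to 20. Shares ranged from -31.5 to -28.1, -7.98 to -6.79, -10.8 to -8.24 and 11.6 to 14.2 points in the fraction comparisons. They ranged from -20.0 to -10.8 and -28.4 to -17.6 for NLS minus NES, 0.321 to 5.01 and 2.17 to 8.23 for G3BP minus NES, and 4.64 to 10.6 for input. The SRSF4 intron in G3BP minus NES mock ranged from -1.60 to 0.43 and the HNRNPC 3'UTR in input from -0.68 to 0.045.

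Of features changed 4-fold in simulated data with at least 20 tags, 1 of 13 was recovered for G3BP minus NES in mock cells and 10 of 10 after arsenite, 19 of 32 and 20 of 30 for NLS minus NES (mock, then arsenite) and 37 of 100 for input.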
